A study of Mus musculus with 3 samples.

Results

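Rgs5-high arterial smooth muscle cells were chosen by their own transcripts in 2 of the 3 libraries of the series. Kept cells had 500 or more unique molecular identifiers (UMIs, 1 per captured transcript), 300 or more genes with a UMI, and no more than 15% of UMIs from mitochondrial genes. A cell was taken as smooth muscle where Acta2, Tagln, Myh11 and Cnn1 together made up at least 2% of its UMIs, and as Rgs5-high where Rgs5 made up at least 5 of every 10000. By this rule 4185 cells were members, of 8095 kept cells in these 2 libraries and 11225 in the series. They were 2113 of 3818 smooth muscle cells (55.3%, 95% interval 53.8 to 56.9) in the sunitinib library and 2072 of 3614 (57.3%, 55.7 to 59.0) in the vehicle library. These intervals cover counting error only, so they do not compare the 2 treatments. The other 1705 and 1542 smooth muscle cells of the same libraries served as the comparison. Because measured transcripts chose the cells, every difference between Rgs5-high and other smooth muscle cells below is a description and carries no test.

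The series sequenced transcript 3′ ends of single cells from digested arteries of wild-type (WT) mice, captured on the 10x Genomics Chromium system. Mice had been given sunitinib or vehicle, and a further library came from mice given sunitinib with Yoda1, an agonist of the stretch-activated channel PIEZO1. Sunitinib blocks several receptor tyrosine kinases, including those for VEGF, PDGF and stem cell factor. Its library is titled TKI and the vehicle library control, and both are labelled 3 weeks without saying whether it is age or treatment time. The labels name no artery, sex or number of animals. Each group is 1 library, so no difference has a replicate check, no p-value is given, and each interval is a 95% interval for counting error only.

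RGS5 is a regulator of G protein signalling. RGS proteins speed up the hydrolysis of GTP by G protein alpha subunits and so shorten the signal of receptors for agonists such as angiotensin and noradrenaline. In the vessel wall Rgs5 is known as a transcript of pericytes and arterial smooth muscle, at levels that differ between vascular beds. Hox genes, in 4 clusters, are transcribed in an order along the body axis that follows their order in the cluster, and many adult cells keep that code, so that high paralogue numbers mark caudal positions. HAND2 and TBX20 are transcription factors best known from the developing heart and outflow tract.

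Both libraries were deep: 66769480 UMIs in 4506 barcodes for sunitinib and 73901343 in 4491 for vehicle, of which 358 and 544 barcodes failed the filters. Rgs5-high and other smooth muscle cells had nearly the same depth, with a median of 16146 UMIs against 16446 in the sunitinib library and 16887 against 16882 in the vehicle library. Mitochondrial shares were alike as well (medians of 6.92% and 6.98% with sunitinib, 6.36% and 6.36% with vehicle). Only 2 kept barcodes occurred in both libraries. No doublet caller was run. The alternative that leaves out the deepest 5% of cells does not replace one, since doublets with a shallower cell may stay in. Transcripts of other cell types were present in both kinds of cell, and some lists differed between them, mainly the leukocyte list with vehicle and the Schwann and neuronal list in both libraries. The 12 endothelial markers summed to 106 CPM (UMIs scaled to a common total, here of the summed cells) in Rgs5-high and 105 in other cells with sunitinib, and 97.5 and 92.0 with vehicle, with Kdr at 0 in the other cells of both. The 12 fibroblast markers summed to 733 against 873 and 796 against 985. The 12 macrophage and leukocyte markers summed to 4.71 against 4.56 and 8.76 against 4.68, with Adgre1 at 0 throughout. Lymphocyte, adipocyte and mesothelial lists stayed below 0.4 CPM in each sum, and all 6 mesothelial markers were at 0 in both groups of the sunitinib library. Red cell markers (9) summed to 3.65 against 3.53 and 10.2 against 10.2, Schwann and neuronal markers (10) to 3.30 against 2.17 and 3.0 against 1.64, and striated muscle markers (12) to 29.9 against 37.5 and 29.1 against 35.1. Their part in the results was not tested.

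The promoters of 3 genes around which the description turns are shown first: Rgs5, which defines the cells, Kit, a sunitinib target and the second highest of the genes named below, and Hand2, the lowest of them. Each is the 250 bases before the RefSeq start (GRCm38.p6, plus strand, 5′ to 3′), in lower case with the matches to a motif of 6 letters in capitals.
Rgs5, chr1:169655251-169655500: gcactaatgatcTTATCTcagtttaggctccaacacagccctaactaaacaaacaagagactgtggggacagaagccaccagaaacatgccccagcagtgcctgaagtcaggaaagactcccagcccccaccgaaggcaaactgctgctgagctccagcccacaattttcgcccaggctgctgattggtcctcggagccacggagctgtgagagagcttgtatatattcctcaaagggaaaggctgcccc
Kit, chr5:75574737-75574986: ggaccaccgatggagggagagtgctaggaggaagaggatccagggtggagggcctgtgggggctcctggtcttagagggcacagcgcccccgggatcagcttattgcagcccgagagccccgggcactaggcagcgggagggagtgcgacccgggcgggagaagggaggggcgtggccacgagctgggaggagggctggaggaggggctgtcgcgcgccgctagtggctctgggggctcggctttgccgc
Hand2, chr8:57320733-57320982: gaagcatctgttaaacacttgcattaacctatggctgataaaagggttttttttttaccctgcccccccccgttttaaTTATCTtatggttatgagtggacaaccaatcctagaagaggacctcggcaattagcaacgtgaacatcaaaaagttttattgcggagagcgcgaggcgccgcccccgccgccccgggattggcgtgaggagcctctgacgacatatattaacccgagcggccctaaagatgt
The 3 motifs searched on both strands were AGATAA (known from the zinc finger factors of the GATA family), TGATTNAT (from HOX with PBX proteins) and the CArG box of serum response factor, and no matches overlapped. The first was found on the opposite strand of Rgs5 (238 to 233 bases before the start) and of Hand2 (172 to 167 bases), where it reads as the capital letters, and the other motifs were in none of the 3 windows. Over 32851 such windows of 27025 genes, 9.99% held AGATAA, 2.83% TGATTNAT and 1.47% a CArG box, so a match or its lack in 3 windows is only a description. The RefSeq table holds 2 Kit windows, and the start used here lies 71 bases downstream of the GENCODE start.

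Rgs5 (ENSMUSG00000026678, chr1:169655501-169695813, plus strand, GRCm38, GENCODE vM21) was the gene of the rule. Its neighbour Rgs4 (chr1:169741477-169747642, minus strand) lies 45663 bases away with 0 protein-coding genes between. Summed over cells, Rgs5 stood at 3055 CPM in Rgs5-high and 131 CPM in other cells of the sunitinib library, and at 3054 and 136 CPM in the vehicle library. Per cell, the median was 20.7 Rgs5 UMIs per 10000 in Rgs5-high and 0.632 in other cells with sunitinib, and 21.2 and 0.701 with vehicle. Levels within the Rgs5-high cells were broad, from 5 to 194 per 10000 in each library. Of the members, 77 with sunitinib and 4 with vehicle passed the threshold on fewer than 3 Rgs5 UMIs. The distribution had no gap at the threshold: 121 cells lay at 4 to 5 per 10000 and 122 at 5 to 6 in the sunitinib library, and 115 and 117 in the vehicle library. Hand2 stood at 12.8 CPM just inside and 16.8 just outside with sunitinib, and at 16.99 and 11.9 with vehicle, in opposite order. Kcnj8 stood at 33.6 just inside and 39.4 just outside with sunitinib and at 24.1 and 20.8 with vehicle, and Esr1 at 8.52 and 7.21 and at 8.49 and 12.3, also in opposite orders. Vcan was higher just inside in both, at 166.6 and 142.4 CPM and at 189.5 and 152.5 CPM. An Rgs5 UMI was found in 14.8% of 182 endothelial-marker cells with sunitinib (median 7304 UMIs) and in 20% of 150 with vehicle (8397 UMIs), a type that should lack the gene, against 59.0% and 63.0% of the other smooth muscle cells.

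**Figure D1:**
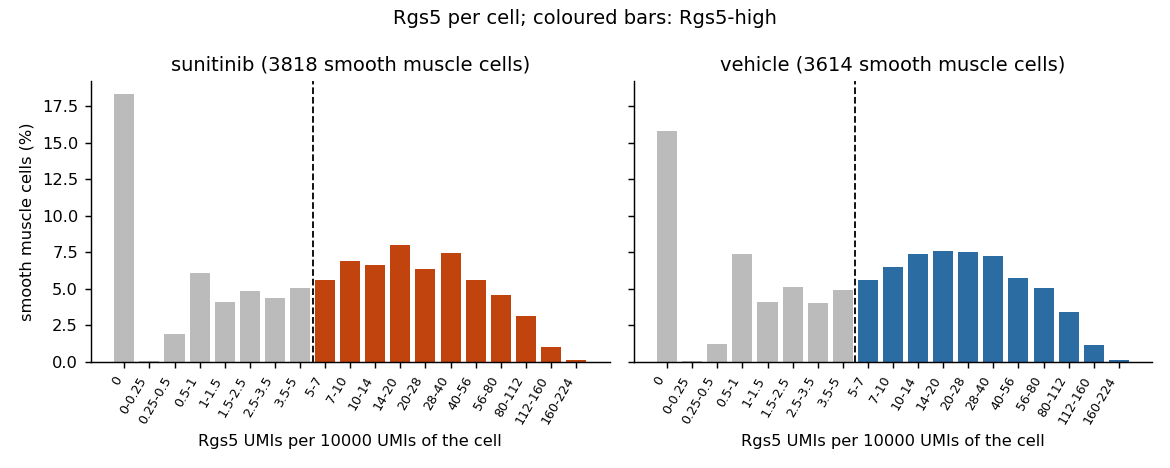
Share of smooth muscle cells (%, vertical axis) by Rgs5 UMIs per 10000 UMIs of the cell (horizontal axis, bins of unequal width) in the sunitinib (left) and vehicle (right) libraries. Coloured bars are the Rgs5-high cells, 55.3% and 57.3% of the cells, and the dashed line at 5 per 10000 falls in a continuous distribution without a gap.

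Rgs5-high and other smooth muscle cells were compared over all genes that had enough UMIs. Of 10975 genes with at least 100 UMIs over both sums in the sunitinib library, 151 (1.38%) were at least 1.5-fold higher and 81 (0.738%) at least 1.5-fold lower in Rgs5-high cells. In the vehicle library these were 172 (1.57%) and 109 (0.994%) of 10963. In both libraries at once, 82 (0.759%) of 10798 genes were higher and 48 (0.445%) lower. These shares come from the contrast that chose the cells and nothing is read from them. By the naming rule the highest 12 were Fbln7, Kit, Tmeff2, Hoxc6, Cdh11, Tmem176b, Vegfd, Bche, Igfbp5, Aknad1, Esr1 and Hoxb8, and the lowest included Hand2, Sncg, Tbx20, Igfbp4, Igfbp2, Enpp2, Nrgn, Prex2, Lgals3, Acan and Atp1b1.

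**Figure D2:**
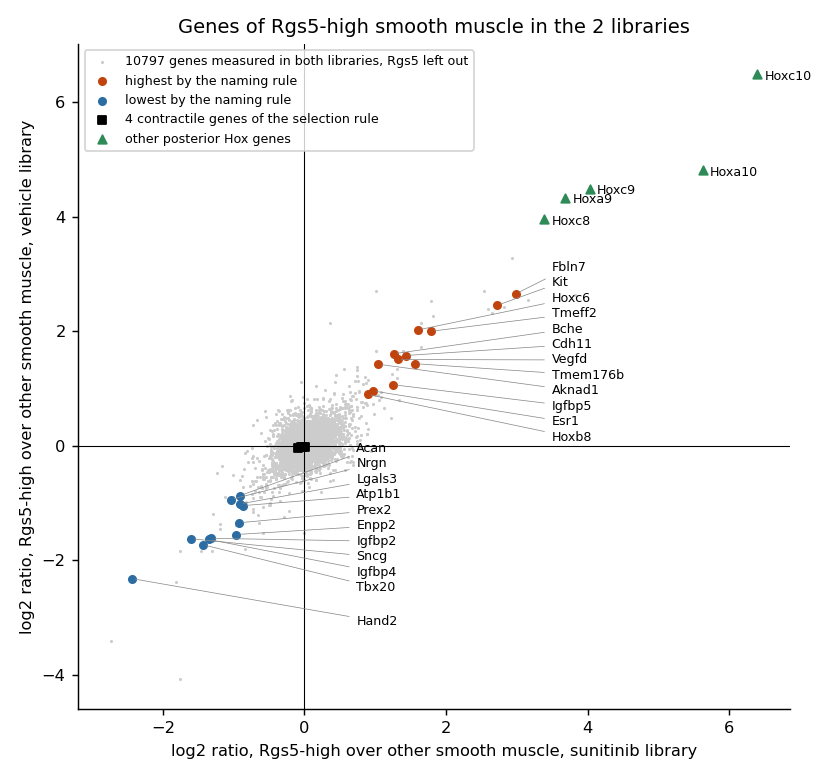
Log2 ratio of CPM in Rgs5-high over other smooth muscle cells in the sunitinib library (horizontal) and the vehicle library (vertical). Grey points are 10797 genes measured in both, orange and blue genes that the naming rule put highest and lowest, green triangles further posterior Hox genes with at least 100 UMIs over both sums in each library, and black squares the 4 contractile genes of the rule, which lie at the origin. Hoxc10 and Hoxa10 lie farthest to the upper right and Hand2 is the lowest of the named genes in both libraries.

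Contractile genes outside the rule were close to level between Rgs5-high and other smooth muscle cells, while desmin was modestly higher. The smooth muscle label rests on the rule itself, which admitted both kinds of cell by contractile transcripts. The word arterial follows the tissue as described above, while the library titles say vascular tissues, and was not checked by markers. Acta2, smooth muscle alpha-actin, stood at 24700 CPM in Rgs5-high and 26320 in other cells with sunitinib, and at 21430 and 22040 with vehicle. Myh11, the smooth muscle myosin heavy chain, stood at 4418 and 4381 and at 3834 and 3886. Both belong to the rule, so their levels are no check of the label. Of 23 other contractile genes, all above the minimum of 100 UMIs over both sums, 0 were at least 1.5-fold higher and 1 was at least 1.5-fold lower in each library, with medians of -0.02 and -0.02 (log2 ratio) against 0.02 and 0.02 over all genes. Over all genes, 1.38% and 1.57% were higher and 0.738% and 0.994% lower. The lower contractile gene was Pln, phospholamban, the inhibitor of the sarcoplasmic calcium pump. It stood at 1.98 against 6.70 CPM with sunitinib and 2.58 against 9.23 with vehicle. With sunitinib Pln had fewer than 100 UMIs in the Rgs5-high cells. It reached the minimum there only through the other cells, so that call supports nothing. Des, the intermediate filament desmin, stood at 165 against 108 CPM (log2 ratio 0.61, 0.55 to 0.68) and 145 against 91.3 (0.66, 0.60 to 0.73), both close to the 1.5-fold limit of 0.585. A Des UMI was found in 26.6% against 19.3% of cells and in 26.4% against 18.3%, and in 1.65% and 2.67% of endothelial-marker cells. The 5% of Rgs5-high cells with most Des held 52.2% of its UMIs in the sunitinib library. A minority of these cells thus carried most of the desmin transcripts. Synm, the desmin partner synemin, had log2 ratios of 0.36 and 0.54, and Vim, vimentin, of -0.21 and -0.14.

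Position genes were among the largest contrasts, and over 3 groups of Hox genes the ratio grew with the paralogue number. The 16 members of paralogues 9 to 13 together held 1178 UMIs in Rgs5-high and 69 in other cells with sunitinib (33.8 against 2.46 CPM), a log2 ratio of 3.78 (3.43 to 4.15) or 13.8-fold. With vehicle they held 1347 and 56 UMIs (33.1 against 1.96 CPM), a log2 ratio of 4.08 (3.70 to 4.49) or 16.9-fold. The 8 members of paralogues 6 to 8 were at 141 against 80.5 CPM (0.81) and 113 against 53.3 CPM (1.08). The 15 members of paralogues 1 to 5 were at 167 against 148 CPM (0.17) and 168 against 146 CPM (0.20). Per cell, a UMI of paralogues 9 to 13 was found in 24.3% of Rgs5-high and 3.28% of other cells with sunitinib, and in 27.3% and 2.79% with vehicle. With every cell thinned to 5000 UMIs the shares were 13.2% against 1.09% and 13.5% against 0.987%, leaving out 176 and 136 shallower cells with sunitinib and 29 and 26 with vehicle. These transcripts are not particular to smooth muscle: 47.3% and 42.7% of the endothelial-marker cells had one.

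Single genes of paralogues 9 and 10, and Hoxc8, had ratios in the direction of the sum. Hoxc10 (chr15:102966796-102971893, plus strand), a posterior gene of the HoxC cluster, had 313 UMIs in Rgs5-high and 3 in other cells with sunitinib (log2 ratio 6.39, 4.83 to 8.68), and 382 and 0 with vehicle, a log2 ratio of at least 6.49 with the 0 set to 3 counts over the group. It was found in 9.56% against 0.176% and in 12.5% against 0% of cells (0 of 1542, exact upper limit 0.239%), and in 0% and 0.667% of the endothelial-marker cells, unlike the sum. Hoxa10 (chr6:52231197-52240854, minus strand) had 245 and 4 UMIs with sunitinib and 319 and 8 with vehicle (log2 4.81, 3.81 to 6.03). Hoxa9 had 271 and 17 UMIs and 256 and 9 (3.68 and 4.32), Hoxc9 142 and 7 and 159 and 5 (4.03 and 4.48), and Hoxc8 143 and 11 and 132 and 6 (3.39 and 3.95). The next 6 genes, none of a higher paralogue number than Hoxc8, had smaller ratios, in no strict order of that number. Hoxb8 among them has the same number as Hoxc8, and Hoxd8, described below, was not among them. Hoxc6 had 1.61 and 2.02, Hoxb8 0.89 and 0.90, Hoxa7 0.75 and 1.13, Hoxb6 0.62 and 0.73, Hoxb7 0.54 and 0.79, and Hoxa4 -0.14 and -0.15. Of the 24 posterior members, 11 reached 100 UMIs with sunitinib and 12 with vehicle, many of them only through the Rgs5-high cells, so that these had to differ and their count supports nothing. Of those measured, 10 and 12 were at least 1.5-fold higher, beside 1.38% and 1.57% of all genes. The medians were 1.65 and 2.99 beside 0.02 and 0.02 over all genes. Of the 15 anterior members, 9 and 8 were measured, 1 and 0 were higher, and the medians were 0.19 and 0.10. Among the members below the minimum in at least 1 library, Hoxd8 had 86 and 1 UMIs and 117 and 1, Hoxd9 48 and 1 and 54 and 0, and Hoxa6 49 and 9 and 71 and 19, while Hoxd10, Hoxd11 and Hoxb13 were at 0 in all 4 sums. The spans of Hoxc10 and Hoxc6 overlap Hoxc5 on the same strand, and that of Hoxa7 overlaps Hoxaas3 on the other, so these assignments are less certain.

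Hand2 and Tbx20 ran the other way. Hand2 (chr8:57320983-57324633, plus strand, overlapping Hand2os1 on the other strand) had 4.48 CPM in Rgs5-high and 24.3 CPM in other cells with sunitinib (log2 ratio -2.44, -2.70 to -2.19), and 5.80 and 29.0 CPM with vehicle (-2.32, -2.54 to -2.11). It was found in 3.74% against 17.5% and in 5.16% against 23.9% of cells, and in 2.75% and 0.667% of endothelial-marker cells, which were shallower. With every cell thinned to 5000 UMIs it was found in 1.71% of Rgs5-high, 9.49% of other and 0.202% of endothelial-marker cells with sunitinib, and in 2.16%, 10.8% and 0.116% with vehicle. Tbx20 (chr9:24718138-24774303, minus strand) had 3.99 against 10.8 CPM (-1.43) and 4.01 against 13.3 CPM (-1.73). Of 32 position and lineage transcription factors, 16 and 18 were measured, 0 and 1 were at least 1.5-fold higher and 3 were lower in each library (Hand2, Tbx20 and Tbx2 at -0.61 and -0.70), with medians of 0.07 and 0.03. The shares over all genes were 1.38% and 1.57% higher and 0.738% and 0.994% lower. Nr2f2, a nuclear receptor known from venous identity, had log2 ratios of 0.45 and 0.36.

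The remaining genes that were higher had varied roles. Kit, the receptor for stem cell factor (chr5:75574916-75656722, plus strand), stood at 10.3 CPM in Rgs5-high and 1.57 CPM in other cells with sunitinib (log2 ratio 2.72, 2.27 to 3.21), and at 14.5 and 2.66 CPM with vehicle (2.45, 2.10 to 2.81). A Kit UMI was found in 11.7% against 2.29% and in 18.2% against 3.96% of cells, and in 0% and 0.667% of endothelial-marker cells, so Kit was detected in a minority of the Rgs5-high cells. Fbln7, the secreted glycoprotein fibulin-7 (chr2:128862981-128897034, plus strand), stood at 15.6 against 1.96 CPM (2.99) and 12.5 against 1.99 CPM (2.65). Tmeff2, a membrane protein with EGF-like and follistatin domains, had log2 ratios of 1.79 and 1.997, and Cdh11, cadherin-11, of 1.43 and 1.57. Vegfd, a ligand of the lymphatic VEGF receptor, stood at 20.4 against 8.20 CPM and 23.2 against 8.18 CPM. Bche, butyrylcholinesterase, had log2 ratios of 1.26 and 1.603, Igfbp5, a binding protein of insulin-like growth factors, of 1.25 and 1.06, and Tmem176b of 1.57 and 1.43. Esr1, estrogen receptor alpha, stood at 13.8 against 7.02 CPM and 13.5 against 6.96 CPM. The rule picked the 12 genes for being higher in both libraries, so their log2 ratios of at least 0.89 in each are no further result. Some of them passed its filters only through the Rgs5-high cells. In the other cells Fbln7 had 55 UMIs with sunitinib and 57 with vehicle, and Hoxc6 had 70 and 57. Kit, Fbln7 and the Hox genes each came from few cells. Of 20 kinases and ligands linked to sunitinib, 14 and 15 were measured, 2 and 3 were at least 1.5-fold higher and 0 and 2 lower, with medians of -0.01 and 0.05. Over all genes, 1.38% and 1.57% were higher and 0.738% and 0.994% lower. Among the higher list members, Kit had 44 UMIs in the other cells with sunitinib and 76 with vehicle. It reached the minimum in each library only through the Rgs5-high cells, so neither call supports anything. Kitl, the KIT ligand, had log2 ratios of -0.23 and -0.62, and Flt1, a VEGF receptor, of -0.55 and -0.68. Pdgfrb, a PDGF receptor, was nearly equal, at -0.02 and 0.05.

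Genes that were lower included secreted binding proteins and enzymes. Igfbp2 and Igfbp4, binding proteins of insulin-like growth factors, had log2 ratios of Rgs5-high over other cells of -1.32 and -1.62 and of -1.36 and -1.64, the opposite sign to Igfbp5. Sncg, gamma-synuclein, had ratios of -1.60 and -1.63. Enpp2, autotaxin, which makes lysophosphatidic acid, had -0.96 and -1.55, and Prex2, an exchange factor of RAC, had -0.92 and -1.35. Lgals3, galectin-3, had -0.92 and -1.02, and Acan, the proteoglycan aggrecan, -0.91 and -0.87. Nrgn, the calmodulin-binding neurogranin, had -1.04 and -0.94, and Atp1b1, a sodium pump subunit, -0.87 and -1.05. The genes named here, Hand2 and Tbx20 included, had log2 ratios of -0.87 or lower in both libraries, as the rule that picked them requires the same sign.

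Other genes of G protein signalling were compared by role. Beside the counts below, the shares over all genes were 1.38% and 1.57% higher and 0.738% and 0.994% lower. Of 19 RGS family genes, 12 were measured in each library. Besides Rgs5, which the rule fixes, 2 were at least 1.5-fold higher in each, and the medians over the 11 measured members without Rgs5 were 0.07 and 0.32. Rgs17 stood at 24.9 against 14.9 CPM (0.74) and 20.2 against 8.04 CPM (1.33), and Rgs1 had ratios of 1.01 and 2.70. With vehicle, Rgs1 had 32 UMIs in the other cells and reached the minimum only through the Rgs5-high cells, so its call there supports nothing. The neighbour Rgs4 was nearly equal, at 96.0 against 94.5 CPM (0.02) and 110 against 113 CPM (-0.05), as was Rgs3 at 0.01 and 0.05. Rgs2 had 0.40 and 0.22. Of 25 G protein and effector genes, all measured, 0 passed 1.5-fold in either direction (medians 0.00 and 0.01), a count near the share over all genes. Of 30 receptors that contract smooth muscle, 12 were measured in each library, 1 and 2 were higher and 1 and 1 lower, with medians of 0.05 and 0.12. Ptger3, a prostaglandin E2 receptor, stood at 6.87 against 1.14 CPM (2.59) and 5.48 against 1.05 CPM (2.39). With 32 and 30 UMIs in the other cells, it reached the minimum only through the Rgs5-high cells, so its call supports nothing. P2rx1, an ATP-gated channel, had ratios of 0.37 and 0.81, and Adra1b, an alpha-1 adrenergic receptor, of -0.72 and -0.68. Npy1r, a neuropeptide Y receptor, stood at 115 against 152 CPM (-0.40) and 116 against 171 CPM (-0.57), and Tbxa2r, the thromboxane receptor, had -0.06 and 0.03. Further receptors were below 100 UMIs over both sums in each library. Agtr1b, an angiotensin receptor, had 39 and 5 UMIs with sunitinib and 72 and 5 with vehicle, S1pr3, a sphingosine-1-phosphate receptor, 43 and 5 and 74 and 5, and Adra1a 51 and 3 and 64 and 8. In these 3 genes most UMIs came from the Rgs5-high cells, but the counts are small. Of 17 receptors that relax smooth muscle, 7 and 8 were measured and 1 and 2 were higher. Calcrl, a receptor subunit for adrenomedullin and CGRP, had 0.83 and 0.67, and its partner Ramp1 0.04 and 0.09. Ramp2, the other gene counted as higher with vehicle, had 1.115 there. It fell to 0.17 at an Rgs5 threshold of 10 and to 0.43 by mean over cells. Of 32 calcium and potassium handling genes, 26 and 25 were measured, 1 and 0 were higher (Kcna5 at 2.30 with sunitinib) and 1 was lower in each (Pln). With sunitinib Kcna5 reached the minimum only through the Rgs5-high cells and Pln only through the other cells, so these calls support nothing. The highest member measured with vehicle was at 0.45. Of 12 nitric oxide and cyclic GMP genes, all were measured and 1 was lower in each: Pde1c, a calcium-dependent phosphodiesterase, at -1.82 and -2.38.

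Most measured pericyte genes were within 1.5-fold. Beside the counts of this paragraph, 1.38% and 1.57% of all genes were higher and 0.738% and 0.994% lower. Of 24 members, 15 were measured with sunitinib and 16 with vehicle, 1 and 2 were at least 1.5-fold higher and 0 lower, and the medians of -0.01 and 0.01 lay beside those of all genes. Cspg4, the proteoglycan NG2, stood at 262 against 272 CPM (-0.05) and 262 against 268 CPM (-0.03). Kcnj8, the pore of the vascular ATP-sensitive potassium channel, was higher, at 45.2 against 30.4 CPM (0.57) and 30.8 against 18.6 CPM (0.73), and its partner Abcc9 had ratios of 0.26 and 0.27. Gja4, connexin-37, had 0.65 and 0.81, and Notch3 0.03 and 0.27. The more selective pericyte markers were at or near 0 in the Rgs5-high cells: Vtn had 0 UMIs in all 4 sums, Higd1b 2 UMIs with sunitinib and 2 with vehicle, and Ndufa4l2 0 and 1. Among 16 genes of phenotypically modulated smooth muscle, 11 were measured, 2 were higher and 3 lower in each library. The 2 higher ones were matrix genes, Fn1 (fibronectin) at 1510 against 938 CPM (0.69) and 1474 against 804 CPM (0.87), and Vcan (versican) at 199 against 119 CPM (0.74) and 198 against 124 CPM (0.68). Vcam1, a leukocyte adhesion molecule, was lower at -1.12 and -0.90, although with sunitinib it was higher (1.36) among the cells with at most 5% mitochondrial UMIs. Eln, elastin, was nearly equal (-0.09 and -0.03). Of 19 basement membrane genes, 18 were measured, 0 and 0 were higher and 0 and 1 lower, with medians of 0.01 and 0.05.

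Within the cells the marker genes did not share one course along Rgs5. Smooth muscle cells of each library were placed in 8 bins by Rgs5 per 10000 UMIs: 0 to 1, 1 to 2.5, 2.5 to 5, 5 to 10, 10 to 20, 20 to 40, 40 to 80, and 80 or more. With sunitinib, paralogues 9 to 13 stood at 1.54, 2.52, 4.61, 7.47, 9.31, 26.5, 72.2 and 133 CPM from the lowest to the highest bin. With vehicle they stood at 1.03, 2.08, 4.07, 3.21, 9.11, 24.2, 82.0 and 124 CPM. Most of the climb lay above 20 per 10000, well inside the Rgs5-high cells. Paralogues 6 to 8 behaved otherwise: with sunitinib they had 60.1 CPM in the lowest bin, 148 at 10 to 20 and 132 in the highest, and with vehicle 35.1, 111 and 120 CPM. Hand2 had its steepest change at the bottom, with 34.0 CPM in the lowest bin, 9.53 at 5 to 10 and 1.49 in the highest with sunitinib, and 37.6, 12.1 and 0 CPM with vehicle. The 3 groups thus had a late climb, an early plateau and an early decline.

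**Figure D3:**
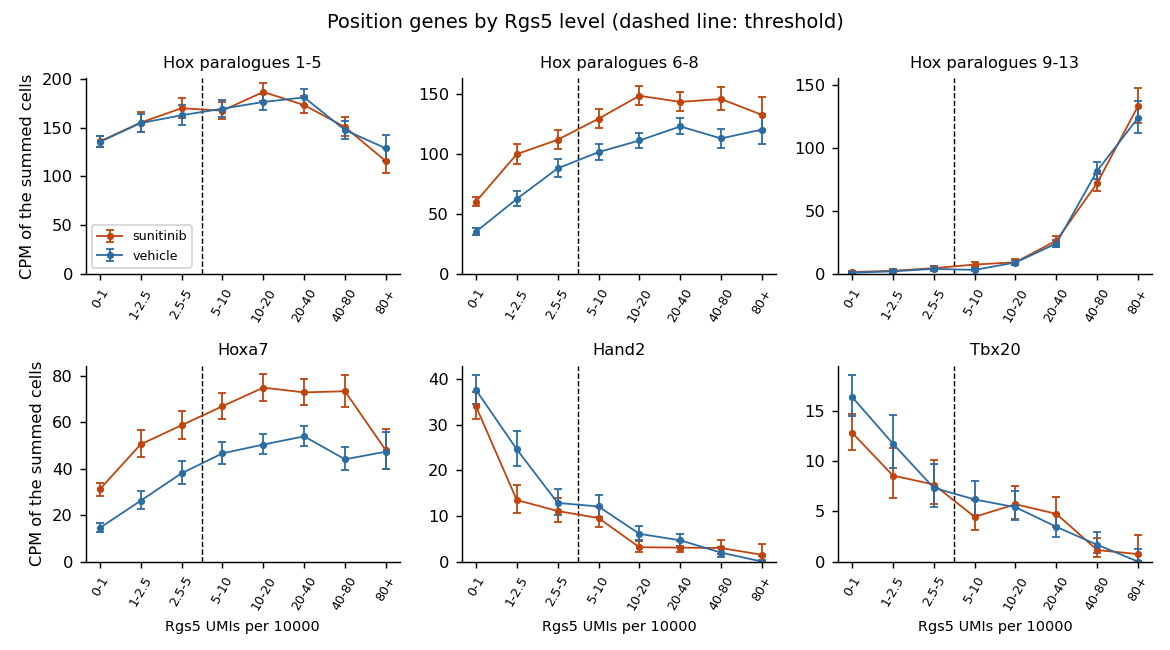
CPM of the summed cells (vertical axes, from 0, scaled per panel) for Hox paralogue groups, Hoxa7, Hand2 and Tbx20 in 8 bins of Rgs5 UMIs per 10000 (horizontal axes), sunitinib in orange and vehicle in blue. Bars are exact 95% intervals for counting error and the dashed line is the threshold of 5. Paralogues 9 to 13 climb to 133 and 124 CPM in the highest bin, while Hand2 has its highest values, 34.0 and 37.6 CPM, in the lowest bin.

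Kit, Fbln7, Des and Fn1 shared the late climb. Kit stood at 2.17 CPM at 5 to 10 Rgs5 per 10000, at 5.90 at 20 to 40 and at 47.6 in the highest bin with sunitinib, and at 4.02, 8.76 and 68.7 CPM with vehicle. Fbln7 stood at 3.01, 12.1 and 66.9 CPM and at 2.64, 6.94 and 52.4 CPM in the same bins. Des was at 101, 123 and 421 CPM and at 61.7, 114 and 346 CPM, and was no higher at 5 to 10 than in the lowest bin (114 and 106 CPM). Kcnj8 was higher in Rgs5-high cells, but within them its Spearman's rho with Rgs5 over cells was 0.063 with sunitinib and 0.143 with vehicle. Vcan climbed over the whole range instead. Vcan stood at 97.3 CPM in the lowest bin, 163 at 5 to 10 and 253 in the highest with sunitinib, and at 105, 173 and 279 CPM with vehicle. Acta2 declined slightly toward the highest bin, with 26210 and 21130 CPM in the lowest and highest with sunitinib and 21950 and 18760 CPM with vehicle. Igfbp2 had its highest values in the lowest bin, 64.25 CPM with sunitinib and 39.8 CPM with vehicle, and stood at 12.8 and 4.60 CPM at 40 to 80 and at 20.4 and 19.95 CPM in the highest bin. Within the Rgs5-high cells alone, Spearman's rho between Rgs5 and paralogues 9 to 13 over cells was 0.451 (2113 cells) and 0.511 (2072 cells), that of Fn1 0.377 and 0.426 and that of Kit 0.315 and 0.350. These points share their library, depth and the total in both measures, and the values are descriptions.

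**Figure D4:**
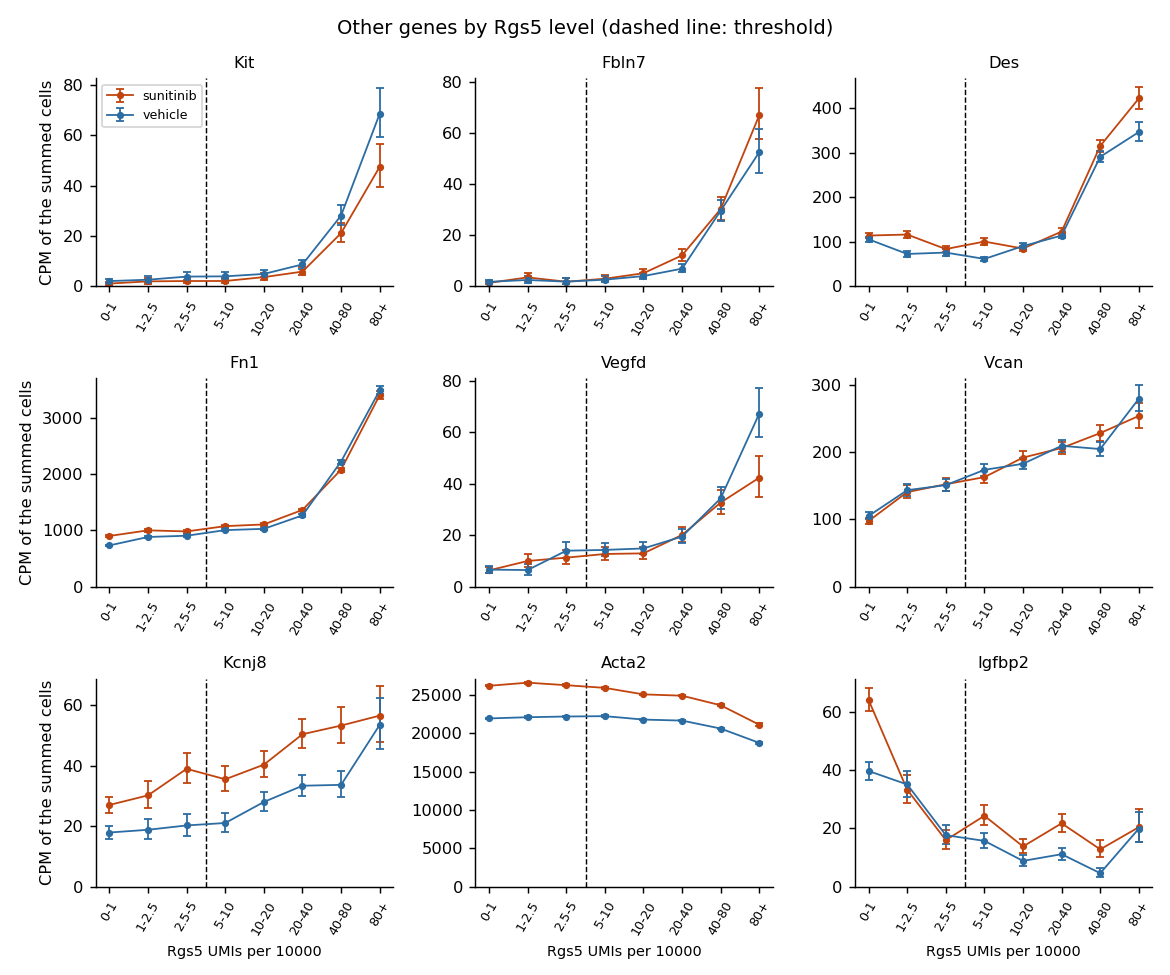
CPM of the summed cells (vertical axes, from 0, scaled per panel) for 9 genes in the same 8 bins of Rgs5 UMIs per 10000, sunitinib in orange and vehicle in blue, with exact 95% intervals for counting error. Kit, Fbln7, Des, Fn1 and Vegfd climb mainly above the threshold, Vcan over the range, and Igfbp2 is highest in the lowest bin, at 64.25 and 39.8 CPM.

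A split of the Rgs5-high cells by any UMI of Hox paralogues 9 to 13, chosen after values were seen, gave further values. With such a UMI were 514 of 2113 cells (24.3%) in the sunitinib library and 566 of 2072 (27.3%) in the vehicle library. Their depth was alike (median 16533 UMIs against 16072 in the cells without, and 16572 against 16998), while their median Rgs5 was higher, at 47.5 against 16.4 and 50.3 against 16.2 per 10000. A cell without such a UMI can still carry the transcripts, so the split is incomplete. Des stood at 332 CPM in cells with and 105 in cells without a UMI with sunitinib, and at 283 and 92.3 CPM with vehicle, and the cells without were level with other smooth muscle (log2 ratios of -0.03 and 0.02). For the cells without over other smooth muscle, Gja4 had -0.01 and -0.08 and Igfbp5 0.06 and 0.21. The last has an interval of 0.06 to 0.36 for counting error only, which leaves out the spread between cells. Fn1 had log2 ratios of 1.24 and 1.34 for cells with over cells without, and 0.25 and 0.37 for cells without over other smooth muscle. Kit and Fbln7 differed in both steps. Kit stood at 26.9 against 4.44 CPM and 34.7 against 6.91 CPM between cells with and without, against 1.57 and 2.66 CPM in other smooth muscle. Fbln7 had ratios of 2.90 and 3.10 for the first step and of 1.56 and 1.04 for the second. A further set differed mainly between the Rgs5-high cells without a UMI and other smooth muscle. Vcan had ratios of 0.81 and 0.71 in that step, against -0.27 and -0.13 for cells with over cells without, and Hoxa7 had 0.77 and 1.06, against -0.06 and 0.25. Kcnj8 had 0.57 and 0.67, against 0.01 and 0.20, and Esr1 0.85 and 0.94, against 0.41 and 0.06. Hand2 was lower in both steps, with ratios of -2.10 and -1.98 for cells without over other smooth muscle and of -2.38 and -2.10 for cells with over cells without. Since the cells with such a UMI also had more Rgs5, the part of Hox transcripts and that of the Rgs5 level cannot be told apart here.

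The last comparison set sunitinib against vehicle within the Rgs5-high cells. Rgs5 did not enter it as a result, since the same threshold chose the cells in both libraries. Of 11185 genes with at least 100 UMIs over both sums, 459 (4.10%) were at least 1.5-fold higher and 303 (2.71%) at least 1.5-fold lower with sunitinib, beside 460 (4.30%) and 303 (2.83%) of 10706 in the other smooth muscle cells. The median over all genes was 0.08 in both. The balance of higher and lower genes depended on the scaling of the totals. With TMM factors 319 were higher and 406 lower in Rgs5-high cells, and 323 and 413 in other cells. Among the position genes, the log2 ratio of sunitinib over vehicle was 0.03 for Hox paralogues 9 to 13 (33.8 and 33.1 CPM), 0.32 for paralogues 6 to 8 (141 and 113 CPM) and -0.37 for Hand2 (4.48 and 5.80 CPM). Hoxa7 was 0.51 (70.2 and 49.2 CPM), and 0.89 in the other cells. Kit was -0.49 (10.3 and 14.5 CPM), and -0.76 in the other cells. Pdgfrb, a target of sunitinib, was at 53.8 CPM with sunitinib and 90.3 CPM with vehicle (-0.75, -0.83 to -0.67), and at 54.7 and 87.5 CPM in the other cells (-0.68). Piezo1 was at 4.37 and 4.99 CPM (-0.19, -0.51 to 0.12), an interval that includes 0.

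The 12 highest by the naming rule were Slc25a33, Rnf152, Fkbp5, Zdhhc23, Dbp, Arrdc2, Tsc22d3, Ppm1n, Fam71a, Smim3, Tmem86a and Zc3h6. Slc25a33, a mitochondrial pyrimidine nucleotide carrier, stood at 52.6 CPM with sunitinib and 17.7 CPM with vehicle (log2 ratio 1.57). Fkbp5 and Tsc22d3, both induced by glucocorticoids, stood at 83.8 and 30.2 CPM (1.47) and at 30.1 and 12.2 CPM (1.30). Dbp, an output factor of the circadian clock, stood at 118 and 46.2 CPM (1.35). The 12 lowest were Fosl1, Myc, Irf1, Csrnp2, Tnfaip6, Klf10, Dusp2, Hspa1b, Phlda1, Zbtb2, Arntl and Noct. Fosl1, an AP-1 subunit, stood at 3.79 CPM with sunitinib and 18.6 CPM with vehicle (-2.29), Myc at 11.4 and 41.3 CPM (-1.86) and Irf1 at 18.3 and 62.4 CPM (-1.77). Hspa1b, an HSP70 gene with a near-identical copy (Hspa1a) that makes its count less certain, stood at 161 and 413 CPM (-1.36). Arntl, the clock activator BMAL1, stood at 6.23 and 15.1 CPM (-1.27). In the other smooth muscle cells all 24 had the same sign, with log2 ratios of 1.63 for Slc25a33, 1.57 for Fkbp5, 1.32 for Dbp, -2.39 for Fosl1, -2.09 for Myc and -1.71 for Irf1.

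Over all genes measured, 4.10% were at least 1.5-fold higher and 2.71% lower with sunitinib in Rgs5-high cells, and 4.30% and 2.83% in other cells. By list, 10 of 25 immediate early genes were at least 1.5-fold lower with sunitinib and 0 higher in the Rgs5-high cells, with a median of -0.45, beside 10 lower and a median of -0.52 in the other cells. Of 17 heat shock genes, 8 were lower (median -0.56), beside 10 (-0.66) in the other cells. Of 11 measured cytokine and NF-kappaB genes, of 18, 6 were lower (-0.70), beside 5 (-0.33). Of 20 measured TGF-beta target genes, of 21, 3 were lower (-0.34), beside 3 (-0.33). Of 14 glucocorticoid-induced genes, 4 were higher and 0 lower (0.13), beside 4 higher (0.17). The 18 clock genes split, with 3 higher and 4 lower and a median of -0.03. Of 23 other contractile genes, 0 were past 1.5-fold (median 0.06). The leukocyte markers moved with this comparison as well, summing to 4.71 CPM with sunitinib and 8.76 CPM with vehicle in the Rgs5-high cells, and red cell markers to 3.65 and 10.2 CPM. Their part in the result was not tested. With 1 library on each side, a difference between treatments cannot be told apart from one between 2 preparations.

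**Figure D5:**
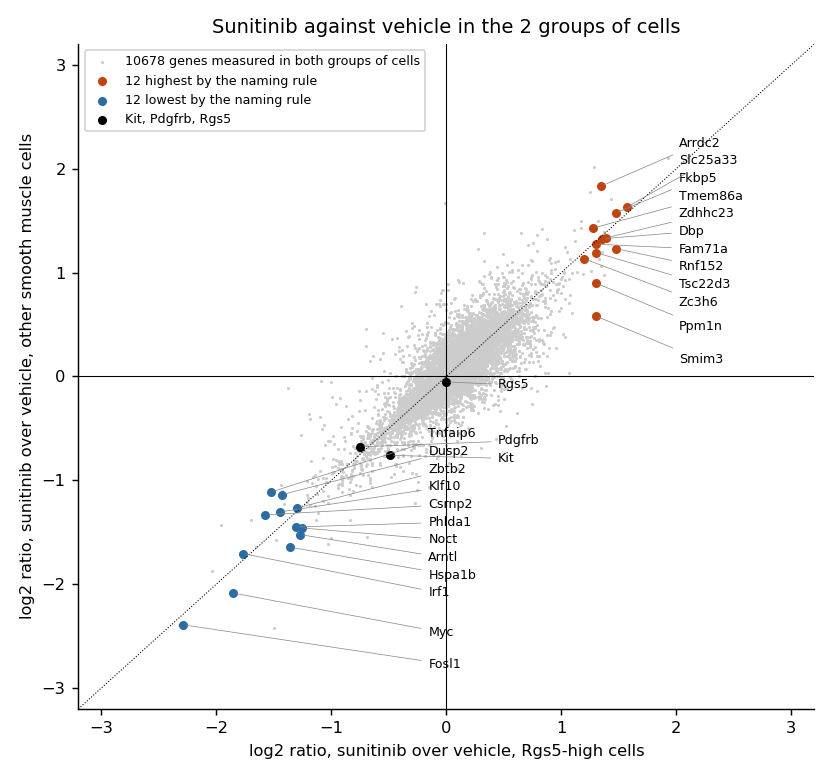
Log2 ratio of CPM, sunitinib over vehicle, in Rgs5-high cells (horizontal) and other smooth muscle cells (vertical), with the dotted line of equal ratios. Grey points are 10678 genes measured in both (1 gene lies outside the axes), orange and blue the 12 highest and 12 lowest by the naming rule in Rgs5-high cells, and black points Kit, Pdgfrb and Rgs5. The genes named by the rule have the same sign in both groups of cells.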

How the data were processed

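Single-cell transcriptomes of arterial cells were analysed in the sunitinib and vehicle libraries, 1 library each. For each library the authors deposited raw UMI counts of 32285 genes in called barcodes, without normalization. The matrices come from Cell Ranger 6.0.0 for both libraries and 7.1.0 for sunitinib with Yoda1, per the file headers. Reads were placed on mm10, and Seurat was used besides Cell Ranger, per the submitters' processing notes. The gene annotation and the use of strand in counting are not given in the sources used here.

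From these counts, cells were filtered and chosen as the report describes, and UMIs of each group and library were summed and scaled to CPM (Python 3.11.15, numpy 2.4.6, scipy 1.17.1, pandas 2.3.3). The sums held 34807709 UMIs (Rgs5-high) and 28054609 (other) with sunitinib, and 40661007 and 28610979 with vehicle. A log2 ratio carries the exact conditional binomial interval of 2 counts, and a share the exact Clopper-Pearson one, both at 95% for counting error only. A count of 0 was set to 3 counts over the group, which makes the ratio a bound. Genes were measured with at least 100 UMIs over both sums, and a ratio of 1.5-fold (0.585 on the log2 scale) was used for counting. With 1 library a group there is no test. Genes were eligible for naming where 10% or more of the cells of one group had a UMI in each library, and the 12 highest and 12 lowest by the ratio nearer to 0 of both libraries were taken, leaving out genes of the rule, of mitochondria, ribosomes, haemoglobins and immunoglobulins, Xist and Y-linked genes, and unnamed models. For sunitinib against vehicle the 12 highest and 12 lowest ratios were taken in the same way. Members of the receptor, RGS, pericyte, filament and similar lists were named as well, as were Hox genes by their sets, low receptors and other genes chosen after their values were seen. The members, the 45 gene lists and the named genes were chosen with earlier results of these data known. Endothelial-marker cells outside the contractile rule had at least 5 UMIs of endothelial markers. Alternatives numbered 16, among them TMM factors (edgeR 4.0.16, R 4.3.3). The scripts were tested on simulated data. Results of some genes are not reported here. The library of sunitinib with Yoda1 was left out of all comparisons, since it held 65 smooth muscle cells.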

Additional observations from a re-analysis of the deposited data

How the results depend on the processing

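No paired analysis was possible because each group is 1 library. Of 146 alternative values of the counts and shares, 118 stayed within their limits and 28 moved. Lowering the minimum to 20 UMIs or raising it to 500 changed every count. For Rgs5-high over other cells these were 488 and 37 higher (151) and 323 and 24 lower (81) with sunitinib, and 562 and 49 higher (172) and 355 and 34 lower (109) with vehicle. For sunitinib over vehicle they were 948 and 128 higher (459) and 581 and 181 lower (303) in Rgs5-high cells, and 1015 and 121 higher (460) and 595 and 180 lower (303) in other cells. With at most 5% mitochondrial UMIs (240 and 223 cells with sunitinib, 307 and 216 with vehicle) the higher counts were 100 for Rgs5-high over other with sunitinib, and 223 and 247 for sunitinib over vehicle in Rgs5-high and other cells. The share of Rgs5-high cells was 64.75% with sunitinib and 66.24% with vehicle at a threshold of 2.5, and 42.85% and 45.24% at 10. It was 51.84% with sunitinib at 5% mitochondrial UMIs, 55.38% with vehicle at a contractile share of 4%, and 49.23% and 50.12% without the cells that have a UMI of Hox paralogues 9 to 13. The last alternative was chosen after the data were seen. It left 113 genes higher with vehicle, and turned Des with sunitinib (-0.038, against 0.61) and Gja4 with vehicle (-0.048, against 0.81). Des with vehicle fell to 0.016, against 0.66. The same alternative took below 1.5-fold Tmem176b (0.47 with sunitinib, 0.07 with vehicle), Igfbp5 (0.13 and 0.21), Fn1 (0.26 and 0.39), Gja4 with sunitinib (0.18), Rgs17 and Rgs1 with sunitinib (0.36 and 0.30) and P2rx1 with vehicle (0.09). Kit stayed at 1.51 and 1.40 there and Fbln7 at 1.55 and 1.16. Among cells with at most 5% mitochondrial UMIs, Vcam1 turned with sunitinib (1.36, against -1.12), Igfbp2 was -0.53 with vehicle and Dusp2 -0.17 for sunitinib over vehicle. Other alternatives took further genes below 1.5-fold for Rgs5-high over other cells. At a threshold of 2.5 these were Des (0.40 and 0.50), Gja4 with sunitinib (0.38) and Vcam1 with vehicle (-0.26). At a threshold of 10 they were Hoxb6 (0.39 and 0.499) and, with vehicle, Hoxb7 (0.49), Calcrl (0.51), Ramp2 (0.17), Adra1b (-0.58), Flt1 (-0.58), Kitl (-0.48) and Tbx2 (-0.56). At a contractile share of 4% they were Des (0.51 and 0.53), Gja4 (0.58 and 0.51), Tbx2 with sunitinib (-0.58) and, with vehicle, Adra1b (-0.54) and Nrgn (-0.565). Against other cells below 1 Rgs5 per 10000 they were Des (0.53 and 0.45), Gja4 and Vcam1 with sunitinib (0.55 and -0.57) and Adra1b with vehicle (-0.53). By mean over cells they were Adra1b, Tbx2 and Hoxb6 with sunitinib (-0.29, -0.29 and 0.54) and Calcrl, Kitl and Ramp2 with vehicle (0.56, -0.57 and 0.43). Without cells with another type's marker, Flt1 was -0.45, Kitl -0.49 and Calcrl 0.55 with vehicle. With sunitinib, Tbx2 was -0.54 at 10000 to 30000 UMIs and -0.47 without the deepest cells, where Hoxb6 was 0.58. Calcrl was 0.38 with vehicle at 5% mitochondrial UMIs. Over single genes, 9954 of 11511 alternative values stayed within their limits, 1554 moved and 3 changed sign. The cause was not tested. TMM shifted all ratios by at most 0.08, which still turned the balance of higher and lower genes for sunitinib over vehicle. Depth limits genes under 100 UMIs, among them most of the HoxD genes and several receptors.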

Other observations

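Genes that varied most among the Rgs5-high cells beyond counting error, ranked over 5915 genes after values were seen, had dispersions far above the median of 0.0777. Apoe, a lipid carrier, had dispersions of 32.5 with sunitinib and 17.4 with vehicle and was found in 25.2% and 31.0% of the cells. Sncg had 13.1 and 38.3 and Tnnt2, a cardiac troponin, 11.8 and 19.7. Pecam1, an endothelial marker, had 14.3 and 10.1 and was found in 21.7% and 29.3% of the cells. Ptgs2, the inducible cyclooxygenase, had 17.5 and 6.63 and Pgf, placental growth factor, 6.50 and 6.33. Igfbp5 had 6.08 and 6.38 and Sfrp2, a secreted Wnt modulator, 7.17 and 6.02. Sfrp2 stood at 62.3 CPM in Rgs5-high and 59.7 in other cells with sunitinib and at 92.8 and 106 CPM with vehicle, and a UMI was found in 28.02% against 32.4% and in 41.5% against 50.1% of cells.

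In the library of sunitinib with Yoda1, 17 of 65 smooth muscle cells (26.2%, 16.03 to 38.5) passed the Rgs5 threshold, of 3130 kept cells. These were too few to describe.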
